A study of Morella rubra with 12 samples.

Results

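The 121 genes described here reached their highest level in pale bayberry fruit at 70 days after flowering. On the values as deposited, their means were at least 2-fold lower at 55 and at 85 days. They were chosen from 119701 assembled genes by their levels in fruit RNA sequencing of Chinese bayberry (Morella rubra). The values are FPKM, the fragments counted on a gene after division by its length and by the size of the library. The 4 groups, of 3 libraries each, were ripe fruits of the Dongkui cultivar (DK) at 85 days, with the colour label black, and fruits of the Baidongkui strain (BDK) at 55, 70 and 85 days, with the colour label pink. DK is the red-fruited cultivar and BDK the pink-white strain of the series title. The labels tell of no treatment and do not state whether the 3 libraries of a group had separate source trees. The p-values below therefore cover the spread between libraries only, and that spread may be technical. DK was sampled at 85 days alone, so its course before that age was not measured.

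A gene was a member if 4 means, each the group's mean FPKM with 1 added, met fixed ratios. The 70-day BDK mean had to be at least 11, at least 2 times the 55-day BDK mean and at least 2 times the 85-day BDK mean. The DK mean had to lie above 0.5 and below 2 times the 85-day BDK mean. Every 70-day BDK library had to exceed every 55-day and 85-day BDK library, and all of those lower libraries had to be above 0. The peak itself, the 70-day contrasts within BDK and the likeness of DK to BDK at 85 days are therefore the choice and not a result. The files pair no gene ID with a name, so what these genes encode was not analysed here and members are known by ID only. In bulk fruit, fewer cells of a type and less RNA per cell cannot be told apart.

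The bayberry fruit is a stone fruit whose edible flesh is made of juicy hair-like segments grown from the fruit wall. As such fruits ripen, cell walls loosen, sugars build up, organic acids are used and, in red fruits, anthocyanin pigments collect. Transcripts that are high for a time and then fall are a known feature of fruit development, where regulators and enzymes of a passing phase give way to those of the ripe fruit.

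The libraries summed to between 817744 and 1219280 FPKM and listed between 32084 and 48737 genes above 0. The files hold no counts, so the depth is unknown. A total of 876 genes, more than of any other such pattern, were above 0 in exactly 6 libraries: all 3 BDK libraries of 55 days, replicate 1 of 70 days and replicates 1 and 2 of 85 days. These libraries are called the first set, and the other 6, all DK libraries among them, the second set. All 121 members were above 0 in all 12 libraries, which the rule required of every BDK library. Within BDK at 70 days, the first-set library lay 0.0041 below the mean of the other two on the log2 scale at the members' median, and within BDK at 85 days the second-set library lay 0.011 below the others.

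Above the minimum set by the rule, which 9560 of the 23074 genes tested reached (41.4%), members differed widely in abundance. At 70 days in BDK their means ran from 10.1 to 13227 FPKM with a median of 38.8, and 35 members lay under 20 FPKM, 34 at 100 FPKM or more and 9 at 1000 FPKM or more. Levels of 100 FPKM or more were reached by 19 members in DK, and in BDK by 13 members at 55 days and 17 at 85 days. The members' share of the summed FPKM was 2.07% ± 0.060 in DK, and in BDK 1.26% ± 0.046 at 55 days, 3.81% ± 0.26 at 70 days and 1.81% ± 0.13 at 85 days (SD, n = 3 each). A large part of this share came from a single gene, c49885_g1. Without it the shares were 1.35% ± 0.13 in DK, and 0.68% ± 0.030, 2.52% ± 0.21 and 1.04% ± 0.066 over the BDK stages.

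**Figure D1:**
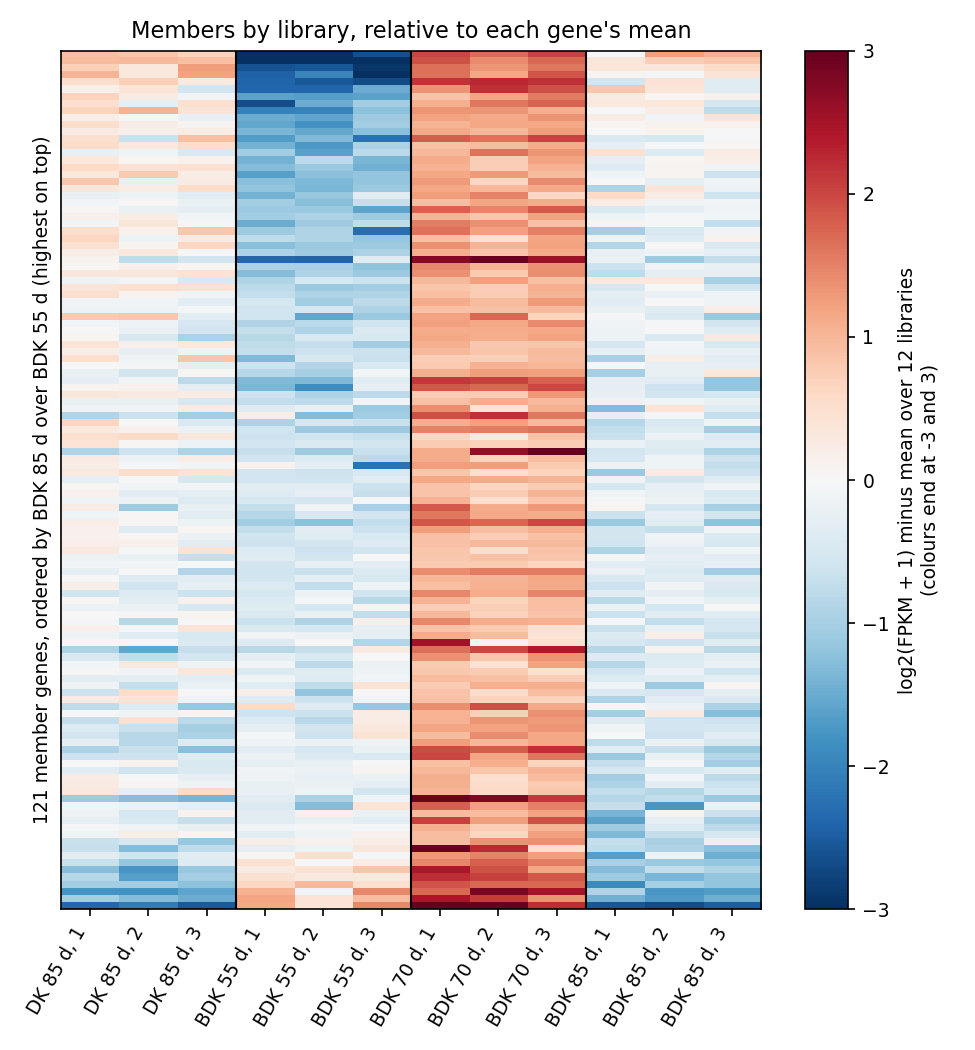
The 121 members (rows) in the 12 libraries (columns), as log2(FPKM + 1) minus each gene's mean over all libraries, with the 3 DK libraries on the left and BDK at 55, 70 and 85 days after them. Rows are ordered by the ratio of BDK at 85 days to BDK at 55 days in mean FPKM + 1, from 18.5 on top to 0.081 at the bottom. The 70-day columns are the highest within BDK because the rule required it, and the 55-day columns run from the lowest in the top rows to above the 85-day columns in the bottom rows.

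The most abundant member, c49885_g1, had 6699.9, 6668 and 5448 FPKM in the DK libraries. In the BDK libraries it had 5913, 5296 and 8039 FPKM at 55 days, 12733, 12692 and 14256 at 70 days, and 6693, 5289 and 7657 at 85 days. The DK values lay within the ranges of BDK at 55 and at 85 days, and those ranges overlapped each other. The next most abundant, c53731_g2, had 1250.2, 1048 and 1163 FPKM in DK, and in BDK 1481, 1411 and 1677 at 55 days, 3131, 2829 and 3199.8 at 70 days and 1118, 1156 and 1244 at 85 days. Its DK and its 85-day BDK libraries overlapped, and both groups lay below all 55-day libraries.

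The rise and the fall differed in size from member to member. On means of FPKM + 1, as in the rule, the ratio of 70 to 55 days had a median of 3.32 and reached 38.4. The ratio of 70 to 85 days had a median of 2.67 and reached 115 (c46760_g1). The added 1 holds down such ratios, as that gene had means of 129 FPKM at 70 days and 0.13 at 85 days. On FPKM as deposited, the rise was the larger of the ratios in 80 members and the fall in 41. Scaling of the libraries raises the 85-day levels and lowers the 55-day levels beside those of 70 days. After it, the fall was under 2-fold in 32 members on the log2 scale of the tests. As deposited, both ratios were at least 3 in 31 members, at least 4 in 15 and at least 8 in 4. Most members were thus moderate peaks, with a median of 2.41 for the smaller of their ratios.

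The member with the highest peak by that measure, on means of FPKM + 1, was c38015_g1, whose smaller ratio was 10.6. The added 1 lowers the ratios of members with low means, so the ranking depends on it. On plain FPKM, c57040_g1 ranks above c38015_g1, with BDK means of 0.91, 17.3 and 1.17 at 55, 70 and 85 days. Gene c38015_g1 had 12.8, 6.53 and 7.65 FPKM in DK, and in BDK 1.49, 1.42 and 9.0 at 55 days, 85.4, 99.3 and 75.4 at 70 days and 10.1, 5.0 and 6.79 at 85 days. The third 55-day library lay within the range of BDK at 85 days, while the other two lay below it. Next on means of FPKM + 1 was c46760_g1, with a smaller ratio of 9.35. It had 0.30, 0.55 and 0.16 FPKM in DK, and in BDK 13.7, 7.86 and 17.2 at 55 days, 192, 165 and 29.99 at 70 days and 0.13, 0.040 and 0.21 at 85 days. The third 70-day library was far below the other two and still above all BDK libraries of the other ages.

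**Figure D2:**
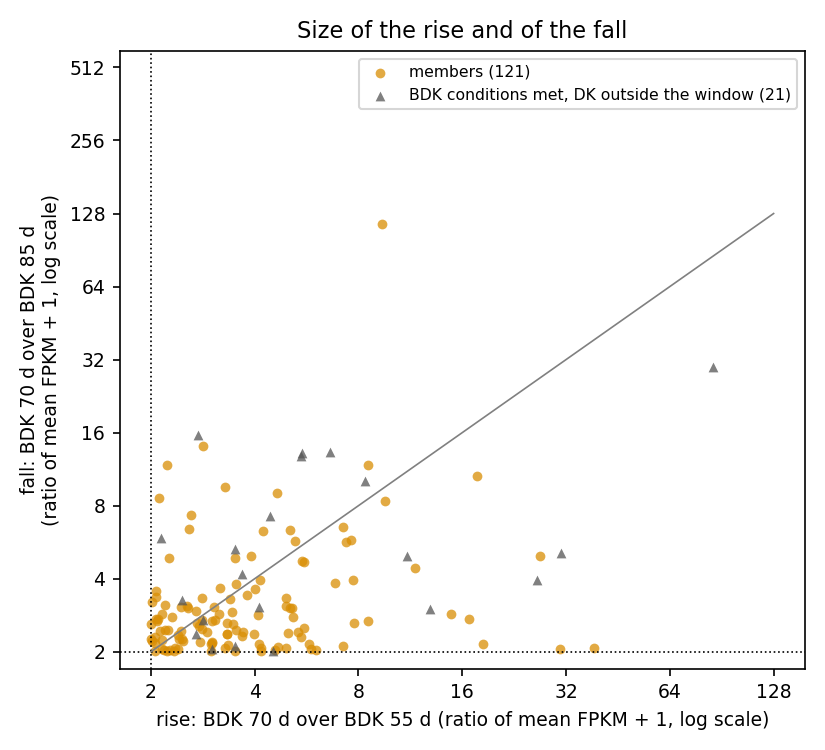
Ratio of BDK at 70 days to BDK at 55 days (x axis) and to BDK at 85 days (y axis), from means of FPKM + 1, both on log scales. Circles are the 121 members, triangles the 21 genes that met all BDK conditions with DK outside its window, dotted lines the limit of 2 set by the rule, and the grey line equal ratios. Points crowd near the limit, with a median of 3.32 on the x axis and 2.67 on the y axis, and few members lie far out on both.

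Near its limits the rule separated genes of almost equal values. On the 70-day minimum of 11 for mean FPKM + 1, c55144_g3 was inside at 11.1 and c34693_g1 outside at 10.95. On the rise, c53731_g2 was inside at 2.005 and c52124_g4 outside at 1.97. On the ratio of 85 to 70 days, with an upper limit of 0.5, c52741_g4 was inside at 0.499 and c47512_g1 outside at 0.502. On the ratio of DK to BDK at 85 days, c57081_g1 was inside at 1.98 and c35076_g1 outside at 2.004, and at the lower end c54324_g5 was inside at 0.676 and c17950_g1 outside at 0.468. On 4 of these 5 edges genes lay close to the limit on both sides, and the count of 121 depends on where the limits were placed.

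To read the pattern in libraries that had no part in the choice, the rule was applied without each BDK library in turn and the genes so chosen were read in the library left out. Without a 70-day library 120 to 134 genes were chosen, and in the left-out library 92.6% to 96.3% of them exceeded all 55-day and 85-day libraries, against 17.5% to 19.2% of all 23074 genes tested. A ratio of at least 2 over both other ages was kept there by 61.2% to 77.7%, against 2.77% to 4.10% of all genes tested. Without a 55-day or 85-day library 116 to 129 genes were chosen. In the left-out library 92.6% to 98.4% of them lay below all 70-day libraries, against 31.3% to 46.9% of all genes tested. The ratio of 2 was kept there by 70.5% to 92.4%, against 11.8% to 15.7% of all genes tested. The 70-day libraries that these were read against had been chosen high. Likewise, the 55-day and 85-day libraries that a left-out 70-day library was read against had been chosen low. The shares over all genes tested carry no such choice. The order is thus partly set by the rule, and these shares are no independent support for the peak. The order of the stages was kept more often than the size of the step, and after scaling of the libraries it was kept by 89.6% to 100% of the genes. In all, 69 of the 121 members were chosen in every choice that left out 1 of the 12 libraries.

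**Figure D3:**
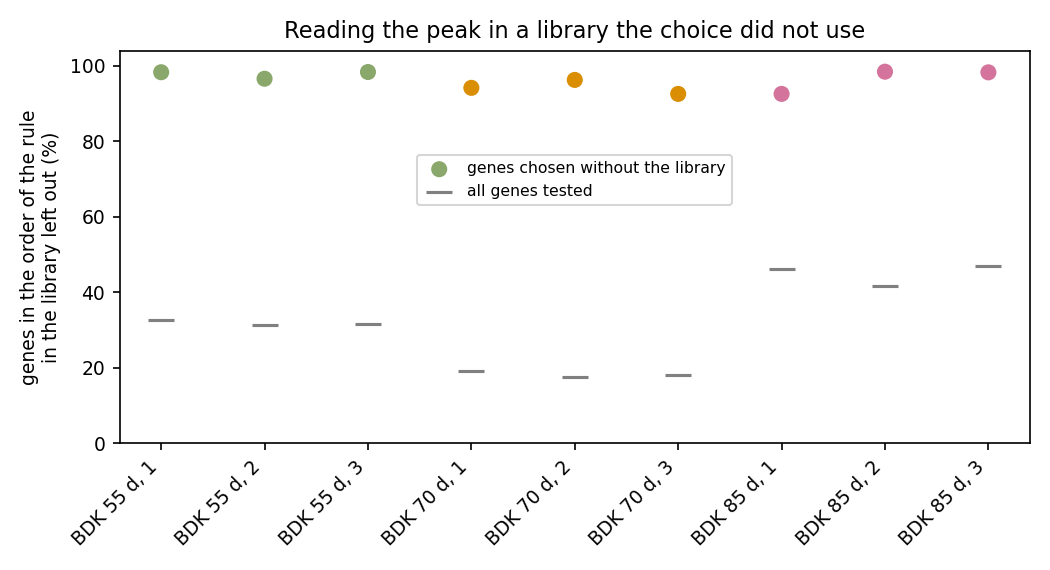
Percent of the genes chosen without a given BDK library that kept the order of the stages in that library (dots), and the same percent over all genes tested (dashes). The x axis gives the library left out. The dots lie between 92.6% and 98.4% and the dashes between 17.5% and 46.9%.

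Between 55 and 85 days in BDK more members ended above their young level than below it. The share found higher by the test below was close to that of all tested genes that reach the 70-day minimum of the rule. The share found lower was smaller. The rule sets no ratio between these ages, but it held the means of both at least 2-fold below that of 70 days. On the scale of the choice, a member that ended below its young level had fallen by more than its rise of at least 2-fold. One that ended above it had risen by more than its fall of at least 2-fold. Genes that are not members need not meet these limits, so these shares describe the choice in part and no difference from other genes is read from them. The scale was log2(FPKM + 1) after scaling of the libraries, on which low genes show less than their full change. The members' median difference was 0.41 (85 minus 55 days), and that of all genes tested was -0.049. Without scaling, as in the choice of members, these medians were 0.16 and -0.26. Limma, a linear model with moderated variances over all 23074 genes, called 56 members higher at 85 days (adjusted p below 0.05), or 46.3%, beside 26.2% of all genes tested. It called 9 members lower, or 7.44%, beside 29.9% of all genes tested. Genes that reach the 70-day minimum of the rule are more often called than low genes. The 9560 such genes include the members and are not matched to them in abundance above that minimum. Among them 45.9% were called higher, close to the members' share, and 26.4% lower, and their median difference was 0.22. The remaining 56 members were not called, and their largest difference was 1.25 (c38015_g1). A missing call does not show that the 85-day level equals the young one. Of the called members 28 were higher and 7 lower by at least 2-fold, or 23.1% and 5.79% of members. That minimum was met by 11.1% and 16.9% of all genes tested, and by 17.4% and 12.1% of those of 11 or more at 70 days. On FPKM as deposited, all 85-day libraries lay above all 55-day libraries for 40 members (33.1%, against 20.2% of genes tested) and below them for 15 (12.4%, against 40.1%).

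The members that ended higher, lower or uncalled are described here by medians over genes, with no test. The 56 higher members had median levels of 21.8 FPKM in DK and of 9.80, 41.7 and 17.6 FPKM over the 3 BDK stages. The 9 lower members were at 2.12 FPKM in DK and at 12.9, 44.8 and 1.51 FPKM over the BDK stages. The 56 members that were not called were at 12.8 FPKM in DK and at 10.1, 32.7 and 9.49 FPKM over the BDK stages. The DK medians followed the order of the 85-day BDK medians, which the window of the rule brings about.

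Among the members that ended higher, c32722_g1 had the largest difference, 4.47 ± 0.36 (SE, limma adjusted p = 1.76e-06). It had 34.2, 80.4 and 71.1 FPKM at 85 days, against 1.14, 1.51 and 4.54 at 55 days, and was at 139, 109 and 141 FPKM at 70 days. The lowest 85-day library was well above the highest 55-day library. Next was c40720_g1 with 4.10 ± 0.16 (limma adjusted p = 1.49e-08). It had 21.6, 28.6 and 30.6 FPKM at 85 days, against 0.94, 1.20 and 0.44 at 55 days, and 65.1, 46.2 and 57.4 FPKM at 70 days. With its low 55-day values, the difference was 5.15 with 0.1 FPKM added before the log and 2.56 with 5 added. Both genes kept near the 2-fold limit of the fall, with 70-day means of FPKM + 1 that were 2.08 and 2.05 times those of 85 days.

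Among the members that ended lower, c46760_g1 fell by 3.41 ± 0.57 on the log2 scale (SE, limma adjusted p = 0.00044), with the values given above. Its 85-day values lay near 0, so the size depended on the FPKM added before the log. The difference was -5.62 with 0.1 added and -1.66 with 5 added. Next was c54333_g1, which fell by 2.15 ± 0.27 (limma adjusted p = 5.28e-05). It had 1.68, 1.22 and 1.62 FPKM at 85 days, against 15.4, 8.55 and 12.8 at 55 days, and 38.2, 29.8 and 17.5 FPKM at 70 days. The 85-day libraries of both genes lay below all their 55-day libraries. The abundant c49885_g1 and c53731_g2 were not called in this comparison, with differences of 0.32 ± 0.24 and -0.095 ± 0.12 (limma adjusted p = 0.30 and 0.54). For c53731_g2 this depended on the scaling, with a difference of -0.37 and a limma adjusted p of 0.013 on FPKM as deposited, over a range of 0.013 to 0.81 under the alternative settings. Neither was c38015_g1, at 1.25 ± 0.49 (limma adjusted p = 0.052, and 0.00043 to 0.22 under the alternative settings).

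**Figure D4:**
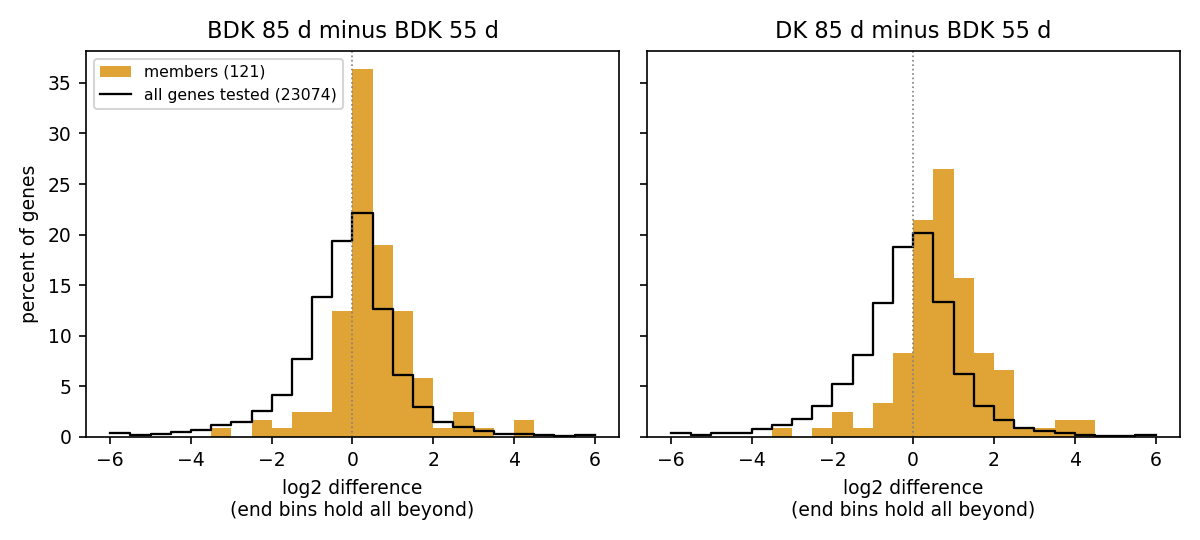
Share of genes (y axis, percent) by log2 difference (x axis, bins of 0.5) for BDK at 85 days minus BDK at 55 days on the left and DK at 85 days minus BDK at 55 days on the right. Filled bars are the 121 members and the black outline all 23074 genes tested. After scaling of the libraries, the members' bars centre above 0 in both panels, with medians of 0.41 and 0.71. The outline centres near 0, with medians of -0.049 and -0.084.

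Ripe DK fruit was set against the same young BDK libraries, a comparison in which cultivar and age differ together and which shares its 55-day libraries with the one above. The members' median difference was 0.71 (DK minus BDK at 55 days), and that of all genes tested was -0.084. Limma called 70 members higher in DK, or 57.9%, beside 26.4% of all genes tested, and 9 lower, or 7.44%, beside 31.1%. Of the 9560 genes that reach the 70-day minimum 45.6% were called higher and 26.6% lower, with a median of 0.21. The rule held the members' DK means within 2-fold of BDK at 85 days, so these values largely follow those of the BDK comparison by construction and add no separate result. All DK libraries belong to the second set and all 55-day libraries to the first. With a model term for the set, the calls were 59 higher and 7 lower, and 20.5% and 22.5% of all genes tested were called higher and lower. The members named for this comparison were again c32722_g1 and c40720_g1 on the higher side and c46760_g1 on the lower side, with c14026_g1.

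These members were picked as the extremes of this comparison, and the rule tied their DK means to BDK at 85 days. Their p-values are given as description and are no separate result. Gene c32722_g1 had 64.2, 60.5 and 55.3 FPKM in DK, against 1.14, 1.51 and 4.54 in BDK at 55 days, a difference of 4.49 ± 0.36 (SE, limma adjusted p = 1.76e-06). Gene c40720_g1 had 32.8, 33.6 and 31.8 FPKM in DK, against 0.94, 1.20 and 0.44, a difference of 4.36 ± 0.16 (limma adjusted p = 1.03e-08). In both genes the DK libraries were closer together than the 85-day BDK libraries. Gene c46760_g1 was lower in DK by a difference of -3.16 ± 0.57 (limma adjusted p = 0.00073). That difference was -4.70 with 0.1 FPKM added before the log and -1.60 with 5 added. Gene c14026_g1 had 0.090, 0.050 and 0.23 FPKM in DK, against 6.61, 2.5 and 9.03 in BDK at 55 days, a difference of -2.38 ± 0.42 (limma adjusted p = 0.00059). At 70 days in BDK it had 11.2, 25.7 and 19.9 FPKM and at 85 days 0.97, 0.11 and 0.16. Its DK difference was -4.47 with 0.1 FPKM added before the log and -0.98 with 5 added.

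**Figure D5:**
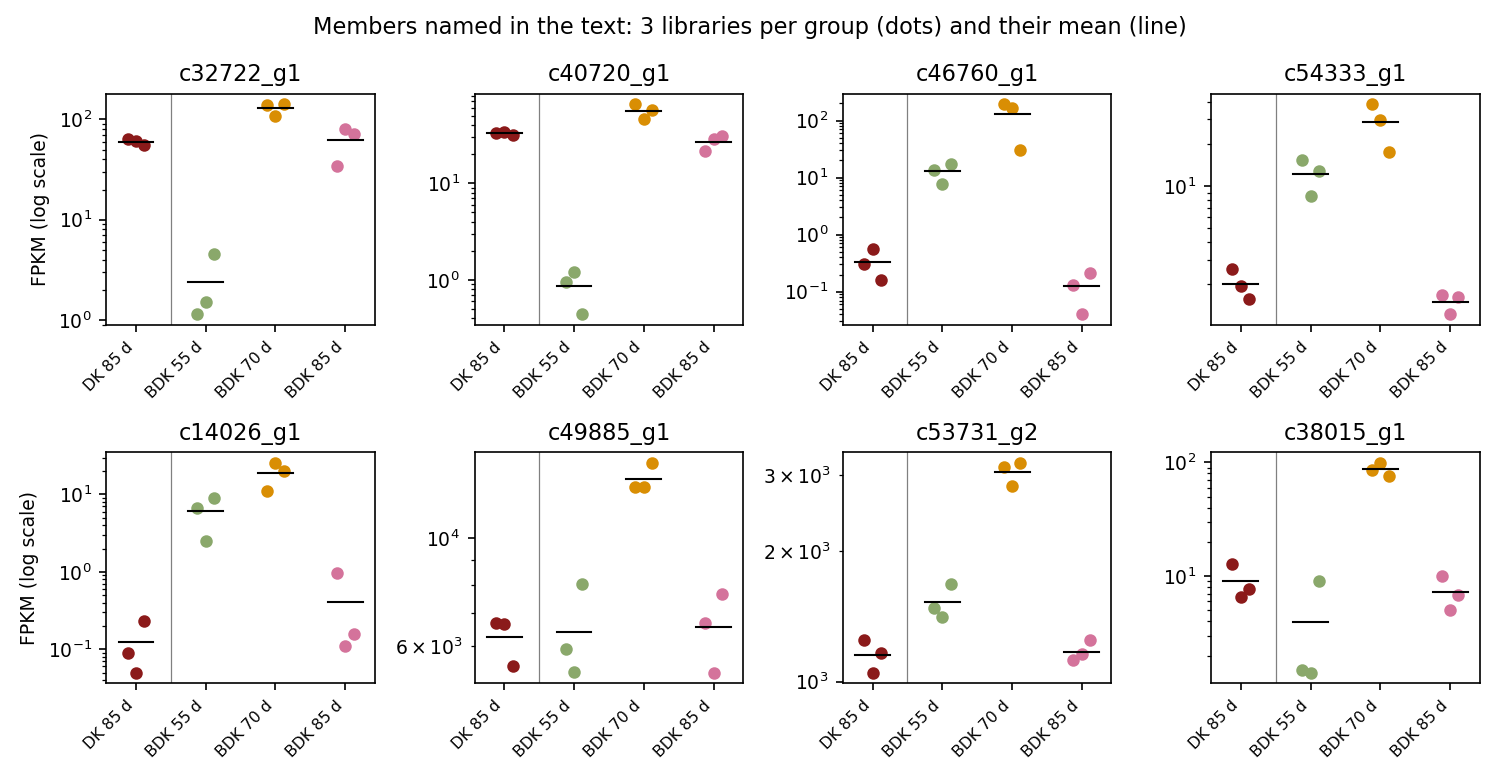
FPKM (y axis, log scale that differs between panels) of the 8 members named by level, peak or net difference, in DK at 85 days (left of the grey line) and in BDK at 55, 70 and 85 days. Dots are the 3 libraries of a group and lines their mean. In c32722_g1 and c40720_g1 the ripe libraries lie far above the 55-day ones, in c46760_g1, c54333_g1 and c14026_g1 far below, and in c49885_g1 the ranges overlap.

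How far DK stood from the 70-day level was read in a wider set of 142 genes that met every BDK condition with no condition on DK, so that the DK libraries had no part in the choice. Of these, 121 fell inside the DK window and are the members, 19 had a DK mean at least 2 times that of BDK at 85 days and 2 had at most 0.5 of it. All DK libraries lay below all 70-day BDK libraries for 122 of the 142 genes (85.9%, against 34.1% of genes tested) and above them for 3, against 15.5%. Limma called 101 of the 142 lower in DK than in BDK at 70 days, or 71.1%, beside 17.7% of all genes tested, and 1 higher, beside 15.6%. The median difference was -1.01 (DK minus BDK at 70 days), against -0.074 over all genes tested. The rule had chosen the 70-day libraries high, which by itself lowers this difference, so these counts describe the choice and nothing is read from them. In the wider set 84 genes (59.2%) were called higher and 11 (7.75%) lower in DK than in BDK at 55 days, beside 26.4% and 31.1% of all genes tested and 45.6% and 26.6% of those that reach the 70-day minimum. The 55-day libraries had been chosen low beside those of 70 days.

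Within its window, DK was more often above BDK at 85 days than below it. The ratio of the means of FPKM + 1 had a median of 1.20 and ran from 0.676 to 1.98. The DK mean was the higher in 87 members and the lower in 34. Limma called 15 members (12.4%) higher in DK and 0 lower, where 3.2% of all genes tested were called higher and 3.29% lower. These values describe the choice and no test is read from them, since the rule bounded this ratio and took genes whose 85-day BDK libraries were low. Among the 9560 genes tested with a 70-day mean of at least 11 for FPKM + 1, a DK ratio of at least 2 was shown by 1.89% and of at most 0.5 by 2.05%.

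By the median ratio, libraries of a group differed least for the members at 70 days within BDK. The same order of ages held for the medians over all genes tested, but not for the shares with a ratio of at least 2. The highest library over the lowest, each with 1 FPKM added, had a median of 1.34 in DK, and in BDK of 1.39 at 55 days, 1.27 at 70 days and 1.46 at 85 days. Over all genes tested the medians were 1.20 in DK, and 1.24, 1.22 and 1.28 over the BDK stages. A ratio of at least 2 between libraries of the same group was shown by 8 members (6.61%) in DK, and in BDK by 19 (15.7%) at 55 days, 8 (6.61%) at 70 days and 19 (15.7%) at 85 days. Over all genes tested the shares were 12.6% in DK, and 15.7%, 16.1% and 17.5% over the BDK stages. The required order of libraries limits this ratio at 70 days. The widest at 70 days was c46760_g1, with 6.22. The highest 70-day library was replicate 1 for 48 members, replicate 2 for 23 and replicate 3 for 50.

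The members were spread over the assembly. Genes whose IDs share the part before the ending _g and its number come from 1 assembly cluster and can share reads, so their separate levels are uncertain. The 121 members lay in 118 clusters, and 54.5% of members were alone in their cluster, against 54.2% of all genes tested. The clusters of members held 115 other tested genes, of which 42 (36.5%) had a 70-day mean above both other BDK ages, against 27.7% of all genes tested. A total of 3 clusters held a pair of members, and the pairs in c53352 and c55699 were the most abundant.

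In cluster c53352, c53352_g1 had 411, 361 and 485 FPKM in DK, and in BDK 271, 254 and 312 at 55 days, 662, 632 and 509 at 70 days and 230.3, 318 and 258 at 85 days. Its partner c53352_g2 had 209.5, 192 and 258 FPKM in DK, and in BDK 149.7, 158 and 184 at 55 days, 361, 348 and 286 at 70 days and 134, 179 and 134 at 85 days. Both had their lowest 70-day value in the third library and their highest 85-day value in the second. Neither was called between 85 and 55 days in BDK (limma adjusted p = 0.28 and 0.50), and both were called higher in DK than in BDK at 55 days, by 0.83 ± 0.16 and 0.67 ± 0.16 (SE, limma adjusted p = 0.0011 and 0.0038). The rule bounded their DK means by those of BDK at 85 days, so no cultivar difference is read from these calls.

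In cluster c55699, c55699_g5 had 149.9, 197 and 124 FPKM in DK, and in BDK 22.5, 22.9 and 39.9 at 55 days, 240.4, 239.8 and 201 at 70 days and 93.5, 110.1 and 55.1 at 85 days. Its partner c55699_g6 had 23.2, 32.3 and 21.7 FPKM in DK, and in BDK 5.28, 7.14 and 7.51 at 55 days, 42.2, 45.6 and 36.3 at 70 days and 16.7, 19.4 and 11.6 at 85 days. Both ended above the young level in BDK, by 1.83 ± 0.28 and 1.38 ± 0.19 on the log2 scale (SE, limma adjusted p = 0.00020 and 0.00010). The cluster also held c55699_g3, no member and named here after its values were seen, with 428, 442 and 505 FPKM in DK, and in BDK 153, 132 and 127 at 55 days, 196, 162 and 191 at 70 days and 659, 602 and 609.8 at 85 days. That gene was highest in the 85-day libraries of BDK, where the member pair had already fallen.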

How the data were processed

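Per the labels' protocols, fruits were frozen, RNA was isolated with Trizol and libraries followed Illumina's protocols. The deposited values are FPKM, 1 per gene, per the file headers. Which assembler, aligner and quantifier made them is not given in the sources used here. Groups and replicate numbers came from the sample titles, and days from the series' design text. Members were found on FPKM as deposited. For tests, trimmed-mean factors (each tail cut by 30% of log ratios and 5% of levels, on genes reaching 1 FPKM in both libraries) ran from 0.895 to 1.14, and the 23074 genes reaching 1 FPKM in 3 or more libraries were tested, among them all 121 members. Limma 3.58.1 (R 4.3.3) was fitted to log2(FPKM / factor + 1) over all 12 libraries and 4 groups, with variances that follow the level and Benjamini-Hochberg adjustment over all genes. The code was tested on simulated data. The named members are the 2 called higher and the 2 called lower with the largest difference in each comparison, the 2 most abundant, the 2 highest peaks, those at the rule's edges and 2 clusters. Members, comparisons and lists were chosen with earlier results of these data known. Alternatives were other factors, filters and pseudocounts, the replicate number as a block, the library set as a term, only the groups compared, a 2-fold minimum, other limits of the rule and each library left out. Fits of a single library set and shares over genes of the rule's 70-day minimum were added after seeing the data.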

Additional observations from a re-analysis of the deposited data

How the results depend on the processing

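No count of members called changed by more than 1.5 times except with a 2-fold minimum, which left 28 higher members for BDK at 85 against 55 days and 42 for DK against BDK at 55 days. Leaving out 1 library gave 48 to 55 higher and 8 to 11 lower members in BDK and 65 to 71 and 7 to 10 for DK. In the first set alone BDK gave 40 and 8. FPKM with no factors moved the median of all genes between 85 and 55 days in BDK to -0.26, against -0.049 with factors, and gave 39 higher and 12 lower members. With a filter of 5 FPKM 58 members were higher and 10 lower in BDK, beside 37.5% and 34.5% of the genes then tested, and with no filter 42 and 7, beside 5.09% and 5.99%. Without factors, as in the choice of members, the members' median between 85 and 55 days in BDK was 0.16, against 0.41 with factors. Relative to the median of all genes it was 0.42 without factors, against 0.46 with them. For DK against BDK at 70 days, the single higher gene of the wider set became 0 with no filter, 2 with the library set as a term, 3 with only those groups, 3 in the second set alone and 0 to 2 without 1 library. The rule chose 31 genes with a ratio of 3, 495 with 1.5, 89 after scaling (85 of them members) and 116 to 134 without 1 library. After scaling, 89.6% kept the order in the left-out replicate 1 of 85 days, against 92.6%, 90.8% in replicate 3 of 70 days, against 92.6%, and 100% in replicate 3 of 85 days, against 98.3%. Differences that changed sign, none of them called, were -0.016 (no factors) and -0.040 (set as a term) for c49885_g1 in DK against BDK at 55 days, and -0.062 for c53352_g1 and -0.14 for c53352_g2 in BDK with no factors. The cause was not tested. Same-numbered libraries of different groups correlated in their deviations at -0.14 to 0.17, and those of unlike number at -0.21 to 0.25. Same-numbered libraries were best matched in 13 of 36 cases. No pairing by number was seen, which does not show that none existed. With the replicate number as a block the counts were 52 higher and 10 lower members in BDK, 68 and 9 for DK against BDK at 55 days, and 1 and 103 of the wider set for DK against BDK at 70 days. With no counts in the files, the precision of low values is unknown.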

Other observations

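The 70-day minimum of the rule and its ratios of 70 to 55 and of 85 to 70 days, with no other condition, were met by 1788 genes. In 1620 of them the 70-day BDK libraries did not all exceed those of the other ages. Of these, 1482 (91.5%) were above 0 in a single library out of the 12, replicate 1 of 70 days for 530, replicate 2 for 519 and replicate 3 for 433. Their median in that library was 43.1 FPKM, with quartiles of 35.0 and 59.0. A mean over 3 libraries thus met the 70-day minimum in each of these genes from 1 value alone, and none of them is among the 121 members.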
